A study of Mus musculus with 24 samples.

Results

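The 10 genes followed here encode protein-folding helpers of mouse cortex: 4 of the cytosol (Hspa8, Hsph1, Hsp90aa1 and Dnajb1) and 6 of the endoplasmic reticulum (ER; Hspa5, Hsp90b1, Pdia4, Calr, Manf and Dnajb9). They were taken by gene name from a table of 43346 genes. All 10 of 10 passed the filter on low counts, as did 19678 genes in all, so no member was lost. The table holds bulk RNA sequencing of 24 cortices, 1 library per mouse and 6 in each of 4 groups. R47H_induced mice were TREM2-R47H+/+ and had tamoxifen, R47H_control mice were TREM2-R47H+/+ and had corn oil, WT_induced mice were TREM2-WT+/+ and had tamoxifen, and WT_control mice were TREM2-WT+/+ and had corn oil. Every group also carried Cx3cr1CreER/+ on C57BL/6. Cx3cr1 drives the tamoxifen-dependent Cre in microglia and related macrophages, TREM2 is a lipid receptor of microglia, and R47H is a variant of it linked to Alzheimer's disease. Ages are not given, tamoxifen without Cre was not analysed here, and nothing ties the 2 genotypes to shared litters. Tamoxifen and induction therefore cannot be told apart, nor can the TREM2 form and any other difference between the lines.

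Cells meet unfolded proteins with separate sets of chaperones in separate compartments. In the cytosol, HSP70 proteins such as Hspa8 bind exposed stretches of a client, J-domain proteins such as Dnajb1 bring the client and start ATP hydrolysis, Hsph1 exchanges the nucleotide, and Hsp90aa1 takes clients on to later folding steps; heat shock factor 1 raises many of these genes after heat or proteotoxic stress. In the ER, the HSP70 protein Hspa5 (BiP) holds new secretory and membrane proteins and also restrains the sensors of the unfolded protein response. That response, through ATF6 and XBP1, raises Hspa5, Hsp90b1 (GRP94), the disulfide isomerase Pdia4, the lectin chaperone Calr, the secreted factor Manf and the J-domain co-chaperone Dnajb9.

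Promoter sequence is shown because the ER members moved together between mice, as given further on, and a known element of the unfolded protein response lies upstream of several of them. RefSeq windows of GRCm38.p6, from 250 bases before to 50 after a gene's start, were at hand for 7 of the 10 members, and Hspa8, Hsp90aa1 and Manf had no window in that table. The ER stress response element was searched on both strands as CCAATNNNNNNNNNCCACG. It was found in 39 of 32851 windows (0.119%), among them those of Hspa5, Hsp90b1 and Calr. Hsp90b1 held it on both strands. The matches read as follows on each gene's own strand, with the fixed letters of the motif and the 9 free letters between them all in capitals; a match that begins with CGTGG is the motif in the opposite orientation.
Hspa5, chromosome 2, first base 65 before the start: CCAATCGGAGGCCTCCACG
Hsp90b1, chromosome 10, first base 212 before the start: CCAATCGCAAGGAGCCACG
Hsp90b1, chromosome 10, first base 107 before the start: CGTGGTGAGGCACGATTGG
Calr, chromosome 8, first base 162 before the start: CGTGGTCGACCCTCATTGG
Pdia4 matched only when the last letter was dropped (CCAATNNNNNNNNNCCAC, in 120 windows or 0.365%, a motif that includes every full match). Dnajb9 had neither form, and no other element of the unfolded protein response was searched. The 250 bases before their starts are shown to set the member with the shortened element beside the one without, each on the minus strand of GRCm38.p6 and with the match in capitals.
Pdia4, chr6:47813513-47813762: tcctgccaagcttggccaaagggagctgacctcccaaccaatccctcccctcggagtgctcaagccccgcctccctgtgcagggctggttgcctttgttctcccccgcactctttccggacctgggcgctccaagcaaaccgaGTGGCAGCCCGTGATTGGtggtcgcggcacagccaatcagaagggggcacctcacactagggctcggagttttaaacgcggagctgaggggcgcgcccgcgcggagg
Dnajb9, chr12:44210069-44210318: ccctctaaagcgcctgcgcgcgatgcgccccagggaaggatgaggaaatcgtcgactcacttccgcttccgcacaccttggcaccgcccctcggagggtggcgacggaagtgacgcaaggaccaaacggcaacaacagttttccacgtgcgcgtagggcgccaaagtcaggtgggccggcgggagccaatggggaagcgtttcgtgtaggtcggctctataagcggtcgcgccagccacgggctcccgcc
The heat shock element was searched as 3 units, GAANNTTCNNGAA, and was found in 198 windows (0.603%). Of the cytosolic members with a window, Hsph1 held it in the opposite orientation and Dnajb1 did not hold it. The Hsph1 match, just after its starts on chromosome 5, is TTCTGGAAAGTTC, and a form of 2 units (GAANNTTC, in 7.86% of windows) overlaps it. A match describes the letters only and says nothing of binding.

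All members were well counted in every library, from 706 counts (Manf) to 28315 counts (Hspa8). Levels are given in CPM, the count scaled to the size of its library with TMM factors. Compared per kilobase of gene length, Hsp90aa1 was highest with a mean of 122 CPM per kb, followed by Hspa8 with 118, Calr with 81.1, Hsp90b1 with 65.0, Hspa5 with 45.5, Hsph1 with 37.0, Dnajb9 with 19.7, Dnajb1 with 17.3, Pdia4 with 12.04 and Manf with 7.77 CPM per kb. The means of Hsp90aa1 and Hspa8 lie closer to each other than the spread of Hspa8 within groups, while the other neighbours in this order lie farther apart than the spread within groups of either gene. The CPM of Hspa8 varied within groups by 14.6% (coefficient of variation). The same measure was 11.4% for Hspa5, 10.4% for Pdia4, 8.95% for Manf, 8.57% for Calr, 7.48% for Hsph1 and 6.72% for Hsp90b1. It was lowest for Hsp90aa1 (5.77%), Dnajb9 (5.26%) and Dnajb1 (5.08%). In bulk RNA, more or fewer cells of a type and more or less RNA per cell cannot be told apart.

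**Figure D1:**
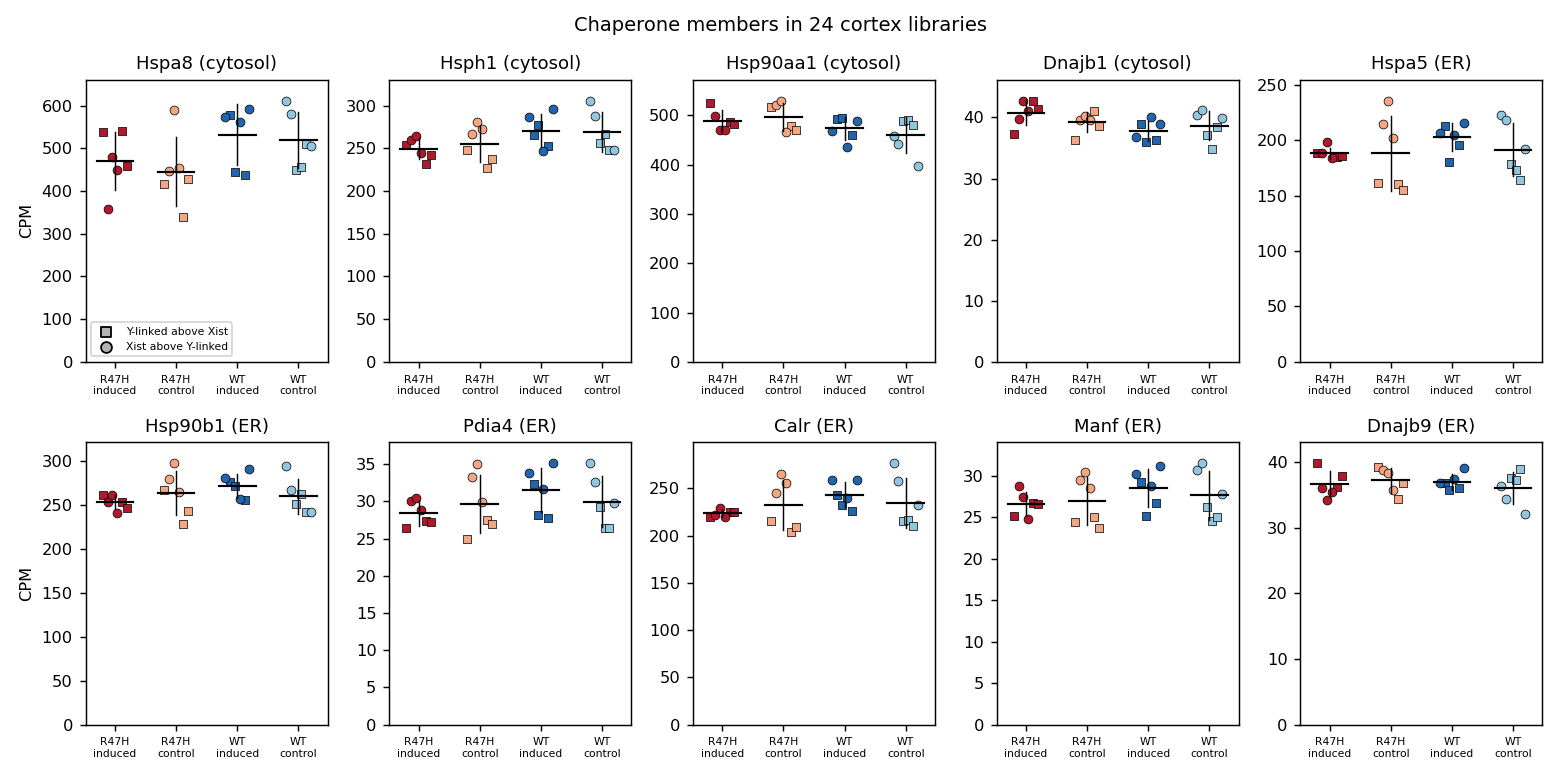
CPM (y axis, from 0) of each member in each library, by group; each point is 1 mouse, the horizontal bar is the group mean and the vertical bar is the SD (n = 6). Squares are libraries with Y-linked counts above Xist and circles the others. Hspa5, Calr and Pdia4 are tightly packed in R47H_induced mice and spread out in R47H_control mice, with the squares below.

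Tamoxifen was asked first whether it moved the chaperones within each genotype. No member had an edgeR adjusted p below 0.05 in either genotype, which does not show that none changed. For Hspa5 in R47H mice, the Y-linked classes of libraries described further on gave values of opposite sign. The average over both classes does not show these. Hspa5 stood at 184 to 198 CPM (median 187) in R47H_induced mice and at 155 to 236 CPM (median 182) in R47H_control mice. The R47H_induced values all fell inside the range of the R47H_control values. It stood at 181 to 215 CPM (median 205) in WT_induced mice, against 164 to 223 CPM (median 185) in WT_control mice, and these groups overlapped. Its log2 fold change was -0.00041 (SE 0.093) for R47H_induced against R47H_control and 0.08 (SE 0.093) for WT_induced against WT_control, with an edgeR adjusted p of 0.9995 in R47H and 0.900 in WT. Calr, which retains misfolded glycoproteins, ran from 220 to 229 CPM (median 223) in R47H_induced mice and from 204 to 266 CPM (median 230) in R47H_control mice. In the WT line it ran from 226 to 259 CPM (median 241) in induced mice and from 210 to 277 CPM (median 224) in control mice. As with Hspa5, the induced libraries lay within the spread of the controls in both lines.

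By compartment, the 6 ER members all had a negative log2 fold change in R47H_induced against R47H_control mice (-0.06 to -0.00041, median -0.04, where the median of all tested genes was 0.0039). All 6 had a positive one in WT_induced against WT_control mice (0.04 to 0.08, median 0.06, where all tested genes had 0.0015). The cytosolic members were mixed, with 2 of 4 positive in R47H mice (median 0.02) and 3 of 4 positive in WT mice (median 0.02). The ER members varied together from mouse to mouse, so their shared sign is not 6 separate observations. It also depended on the scaling: with library totals in place of TMM, 3 of the 6 ER members were positive in the R47H line (median 0.01) and 5 of 6 in the WT line (median 0.02). The difference of the 2 inductions was negative for all 6 ER members, between -0.13 (Pdia4) and -0.06 (Dnajb9), with a median of -0.10 against 0.0027 for all tested genes. With library totals it was negative for 3 of 6 (median -0.0047) and positive for all 4 cytosolic members. None of the 10 passed (lowest edgeR adjusted p 0.692, for Hsp90b1), and for Hspa5 the 95% interval of this difference ran from -0.35 to 0.19.

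No gene in the whole table passed either induction or their difference in edgeR (0% called). At an unadjusted p below 0.05 there were 1006 genes for R47H_induced against R47H_control, 1545 for WT_induced against WT_control and 1562 for the difference, and no member was among them. DESeq2 called 4, 10 and 3 genes in these comparisons and limma-voom none. Averaged over genotypes, induced against control again gave no call in edgeR (0%, 913 genes at an unadjusted p below 0.05, none of them members) or limma-voom, and 4 in DESeq2. The 10 members lay between -0.01 and 0.06 in that average.

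**Figure D2:**
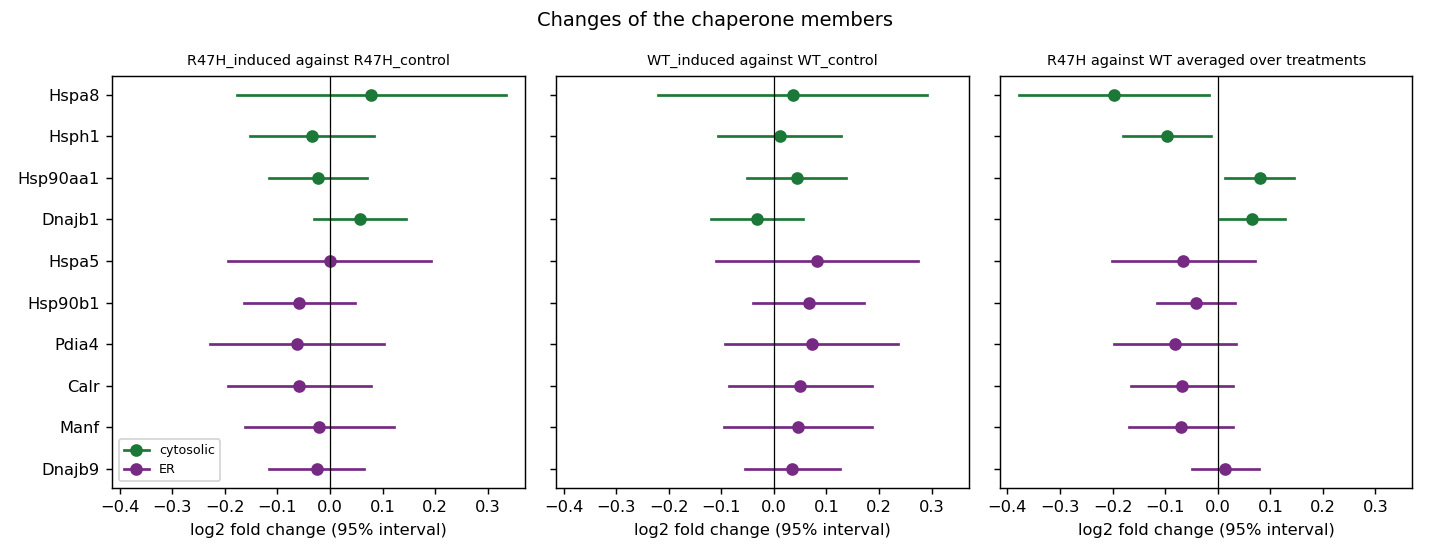
Log2 fold change (x axis) of each member with its 95% interval from edgeR, for R47H_induced against R47H_control, WT_induced against WT_control, and R47H against WT averaged over treatments. ER members lie left of 0 in the R47H induction and right of 0 in the WT induction, all with intervals across 0, and the 4 cytosolic members are split in the third panel.

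Between the genotypes, the cytosolic members differed in sign. Averaged over treatments, R47H against WT mice had a log2 fold change of -0.20 (SE 0.087) for Hspa8, -0.10 (SE 0.040) for Hsph1, 0.08 (SE 0.032) for Hsp90aa1 and 0.07 (SE 0.030) for Dnajb1. All 4 had an unadjusted p below 0.05, as had 27.2% of all tested genes, and none passed (edgeR adjusted p 0.144 for Hspa8, 0.116 for Hsph1, 0.104 for Hsp90aa1 and 0.153 for Dnajb1). The background in that comparison was 13.8% of genes called. With the Y-linked class described further on as a covariate, Hsph1 passed (-0.10, edgeR adjusted p = 0.0449). The 13.8% is of the fit without that covariate, and the share called with it is not given here. The ER members were lower in R47H mice for 5 of 6, with a median of -0.07 against -0.00058 for all tested genes. No ER member had an unadjusted p below 0.05, and the lowest adjusted p was 0.376 (Calr).

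Within treatments, all 6 ER members had a negative log2 fold change in R47H_induced against WT_induced mice (median -0.11) and 4 of 6 did in R47H_control against WT_control mice (median -0.01). With library totals these counts were 5 of 6 and 6 of 6. No member was called in R47H_induced against WT_induced mice, where 5.8% of genes were, or in R47H_control against WT_control mice, where 5.74% were. Hsph1, the HSP110 exchange factor, had 231 to 265 CPM (median 248.8) in R47H_induced mice, against 246 to 295 CPM (median 272) in WT_induced mice. It had 226 to 280 CPM (median 257) in R47H_control mice, against 248 to 306 CPM (median 261) in WT_control mice. The genotypes overlapped under both treatments. Hsp90aa1, the stress-inducible HSP90, had 471 to 526.014 CPM (median 485) in R47H_induced mice and 437 to 494 CPM (median 479) in WT_induced mice. It had 467 to 530 CPM (median 497) in R47H_control mice and 396 to 491 CPM (median 470) in WT_control mice. Dnajb1, the J-domain partner of Hspa8, ran from 37.2 to 42.8 CPM (median 41.2) in R47H_induced mice and from 36.0 to 40.0 CPM (median 37.8) in WT_induced mice, a log2 difference of 0.11 (SE 0.043, edgeR adjusted p = 0.131). Every pair of groups named here overlapped.

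The negative value for Hspa8 in R47H mice turned positive once near-identical copies of the gene were counted with it. Hspa8 (chromosome 9, 40800984 to 40805200, mm10) had 358 to 541 CPM (median 469) in R47H_induced mice, against 437 to 593 CPM (median 568.2) in WT_induced mice. It had 340 to 590 CPM (median 437) in R47H_control mice, against 450 to 612 CPM (median 507) in WT_control mice. The groups overlapped, and the lowest library of all was an R47H_control one. The table lists 11 further genes whose transcripts match Hspa8 at 90% identity or more over at least 200 bases, and the labels do not say how reads shared between such copies were counted. The copies held 169278 counts beside 459797 for Hspa8 itself. Most were in Gm26825 (86082 counts, 99.6% identical over 1940 bases) and Gm15459 (77253 counts, 99.7% over 1941 bases), both on chromosome 5.

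The copies' summed CPM fell into 3 ranges with empty gaps between them. In 11 libraries it was 82.0 to 109 CPM, and Hspa8 there was 504 to 612 CPM. In another 11 it was 218 to 248 CPM, with Hspa8 at 417 to 479 CPM. In the remaining 2 it was 360 to 370 CPM, with Hspa8 at 340 to 358 CPM. Hspa8 itself therefore also fell into 3 ranges that did not overlap, in the reverse order. The lowest range of copies held 2 R47H_induced, 1 R47H_control, 4 WT_induced and 4 WT_control libraries. The middle range held 3, 4, 2 and 2 of these groups, and the highest 1, 1, 0 and 0.

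Summed with its copies, Hspa8 was nearly level. The sum ran from 639 to 729 CPM (median 690.0) in R47H_induced mice, from 635 to 700 CPM (median 693) in R47H_control mice, from 658 to 700 CPM (median 674) in WT_induced mice and from 586 to 719 CPM (median 678) in WT_control mice. All 4 groups overlapped, and the coefficient of variation within groups was 5.42% for the sum, against 14.6% for Hspa8 alone. R47H against WT averaged over treatments was then 0.03 (SE 0.031, 95% interval -0.03 to 0.10, edgeR adjusted p = 0.527), on the other side of 0 from the value for Hspa8 alone.

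Genes that followed Hspa8 alone most closely across mice, after each group's mean was removed, were Clmp (r = 0.94), Sc5d (0.91), Cbl (0.81), Fez1 (0.81), 4933402D24Rik (0.80), Rnf26 (0.79), Zfp451 (0.77) and Vamp3 (0.77). The likeness is Pearson's r of log2 CPM over 24 libraries, given as a description. Of these 8 genes, 5 lie on chromosome 9, as Hspa8 does: Clmp, Sc5d, Cbl, Fez1 and Rnf26. Within 5 Mb of Hspa8, 17 of 96 tested genes (17.7%) had an r of 0.6 or more in size with it, against 2.60% of the other genes. With the copies added to Hspa8, 2 of the 96 did (2.08%, against 0.710%). Among the other members, 8.51% to 9.44% of Hsp90aa1 and its copies together was in the copies, and 8.11% to 9.29% for Hsp90b1, where the copy overlaps the gene itself. The share was at most 0.443% for Calr and 1.10% for Dnajb9, and no copy was found for the other 5. The library kit does not mark strand, so reads in exons shared with other genes cannot be assigned; these make up 15.7% of the exon bases of Hsp90b1, 9.25% of Manf, 6.09% of Hspa8 (small nucleolar RNAs) and at most 0.584% of the rest.

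**Figure D3:**
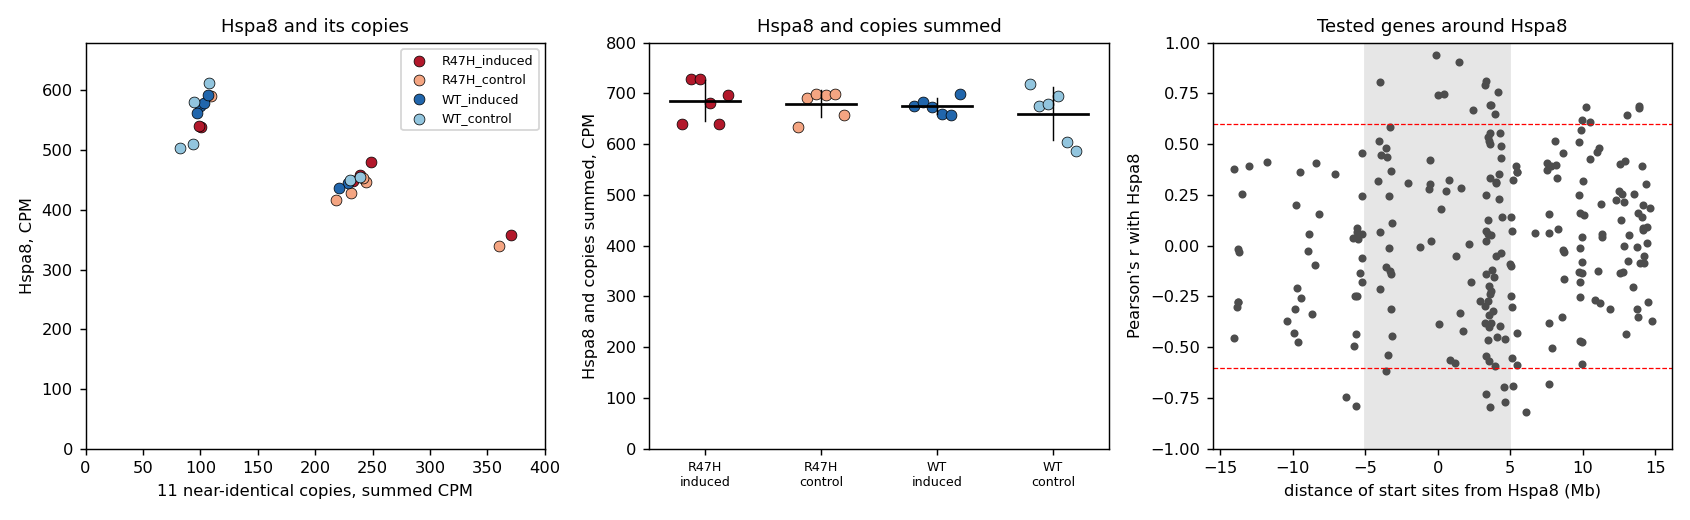
Left, Hspa8 CPM against the summed CPM of its 11 near-identical copies, 1 point per library; middle, the sum of both by group with mean and SD (n = 6); right, Pearson's r with Hspa8 of tested genes around it, by distance between start sites in Mb (shaded within 5 Mb, dashed lines at 0.6 and -0.6). The libraries form 3 clusters at the left, the sums of all groups overlap in the middle, and genes with high or low r gather near Hspa8 at the right.

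From mouse to mouse, 5 of the 6 ER members rose and fell together, Hsp90b1 the least closely. With group means removed, all 10 pairs among Hspa5, Hsp90b1, Pdia4, Calr and Manf were positively correlated over 24 libraries, with r between 0.65 and 0.93 (median 0.87) and permutation p adjusted over the 45 pairs of members between 7.5e-05 and 0.0105. Each of the 10 kept its sign in all 4 groups, but not its size. In R47H_induced mice r ran from 0.01 (Hsp90b1 with Pdia4) to 0.71 (Hspa5 with Hsp90b1). It ran from 0.69 to 0.99 in R47H_control, from 0.44 to 0.96 in WT_induced and from 0.61 to 0.98 in WT_control mice. Hspa5 and Calr gave r = 0.93 (rho = 0.93, permutation p = 1e-05 for each, the smallest that 100000 permutations within groups can give), and r = 0.91 without the 2 libraries farthest from the median of Hspa5. The figures for Pdia4 and Manf were r = 0.91, rho = 0.91 and r = 0.90 without 2 libraries, with the same permutation p. Over all 24 libraries Dnajb9 stood apart from its own compartment, with r between -0.09 and 0.37 to the other 5 ER members. Of these 5 pairs 0 passed (unadjusted permutation p below 0.05 for none). Within WT_induced mice alone, r of Dnajb9 with these members was 0.57 (Hsp90b1) to 0.84 (Pdia4). In the other groups it ran from -0.86 (Pdia4, R47H_induced) to 0.76 (Hsp90b1, R47H_control). The r of Dnajb9 within the classes of libraries described further on is given there.

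Of the 6 pairs of cytosolic members 2 passed, Hspa8 with Hsph1 (r = 0.48, rho = 0.47, adjusted permutation p = 0.048) and, negatively, Hsp90aa1 with Dnajb1 (r = -0.52, rho = -0.52, adjusted permutation p = 0.0395). Across compartments 14 of 24 pairs passed. Hsph1 followed the 5 co-varying ER genes with r between 0.68 (Manf) and 0.89 (Hsp90b1), beside 0.07 to 0.48 with its cytosolic partners. The 0.48 is with Hspa8 alone. With the copies added to Hspa8 it was 0.61 (adjusted permutation p = 0.0103), nearer to the value for Manf. Hsp90aa1 instead followed Dnajb9 (r = 0.76, rho = 0.71, adjusted permutation p = 0.0013), and r was 0.75 without the 2 farthest libraries. By group, r of this pair was 0.82 in R47H_induced, 0.82 in R47H_control and 0.95 in WT_control mice. It was -0.0065 in WT_induced mice, so the pairing was absent there. Hspa8 passed with 6 of 9 partners alone and with 2 of 9 once its copies were added (Hsph1 and Pdia4). In all 26 of 45 pairs passed, and 22 with the copies added, all of which were among the 26. Neither the log2 of the total count nor the share of rRNA-like counts passed with any member.

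**Figure D4:**
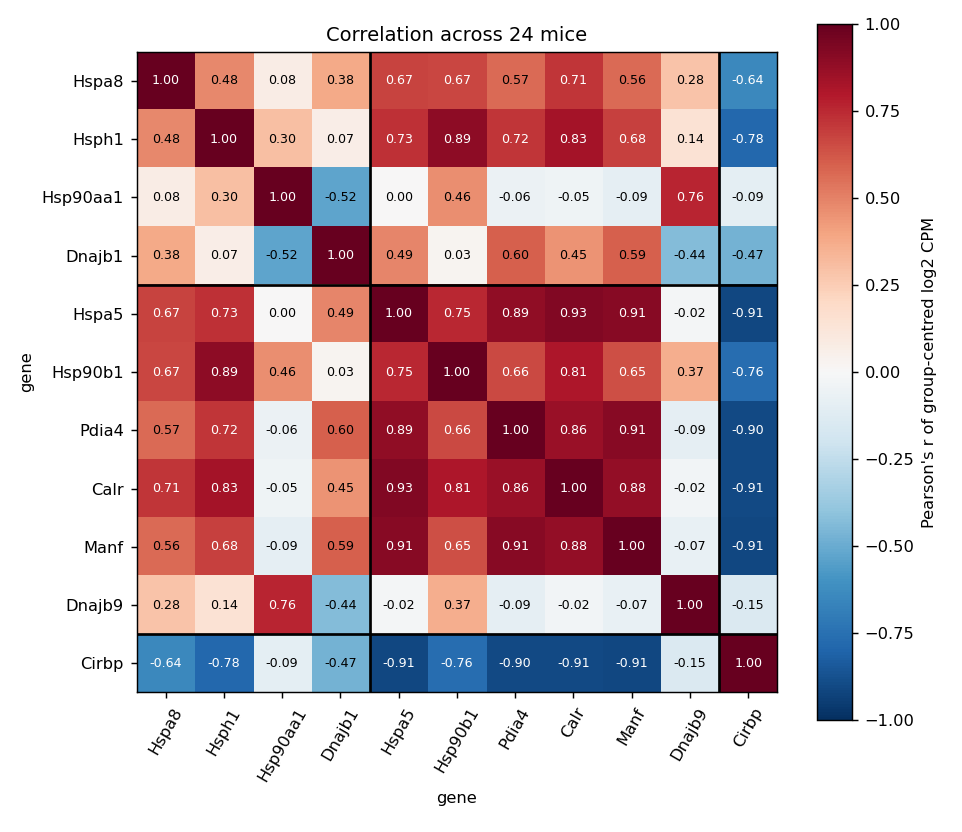
Pearson's r between members, and with Cirbp, of log2 CPM centred on group means over 24 libraries (colour scale and printed value); black lines separate the cytosolic members, the ER members and Cirbp. Hspa5, Hsp90b1, Pdia4, Calr and Manf form a block of high r that also takes in Hsph1, while Dnajb9 and Hsp90aa1 pair with each other.

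The gene opposite to this block was Cirbp, an RNA-binding protein that cells raise when cooled. Of all 19677 other tested genes it had the lowest r with Hspa5, Pdia4 and Manf, and the second lowest with Calr. The r was -0.91 for Hspa5 (rho = -0.93), -0.90 for Pdia4 (rho = -0.89), -0.91 for Calr (rho = -0.91) and -0.91 for Manf (rho = -0.90), each with a permutation p of 1e-05, the smallest possible, and an adjusted permutation p of 0.000262 over 210 relations of members with outside measures. Without the 2 farthest libraries these were -0.92, -0.88, -0.91 and -0.90. Cirbp was listed with earlier results of these data known, a choice that the adjustment over 210 relations does not cover. Hsph1 (r = -0.78), Hsp90b1 (r = -0.76) and Hspa8 (r = -0.64) also passed, while Dnajb1 (r = -0.47), Dnajb9 (r = -0.15) and Hsp90aa1 (r = -0.09) did not. Rbm3, the other cold-inducible RNA-binding gene, was negatively related to 7 of the 10 members by the same test. Cirbp was at 40.9 to 45.8 CPM in 5 libraries and higher in the other 19, so r was also taken over those 19 alone, where it was -0.82 for Hspa5, -0.74 for Pdia4, -0.85 for Calr and -0.82 for Manf. Over the same 19 libraries it was nearer 0 for the other members that had passed, at -0.33 for Hsp90b1, -0.47 for Hsph1 and -0.34 for Hspa8. For these the relation rests largely on the 5 libraries of low Cirbp. The 10 pairs among Hspa5, Hsp90b1, Pdia4, Calr and Manf had r between 0.09 and 0.87 (median 0.69) over these 19. The lowest were of Hsp90b1, with Pdia4 (0.09), Manf (0.22) and Hspa5 (0.35).

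**Figure D5:**
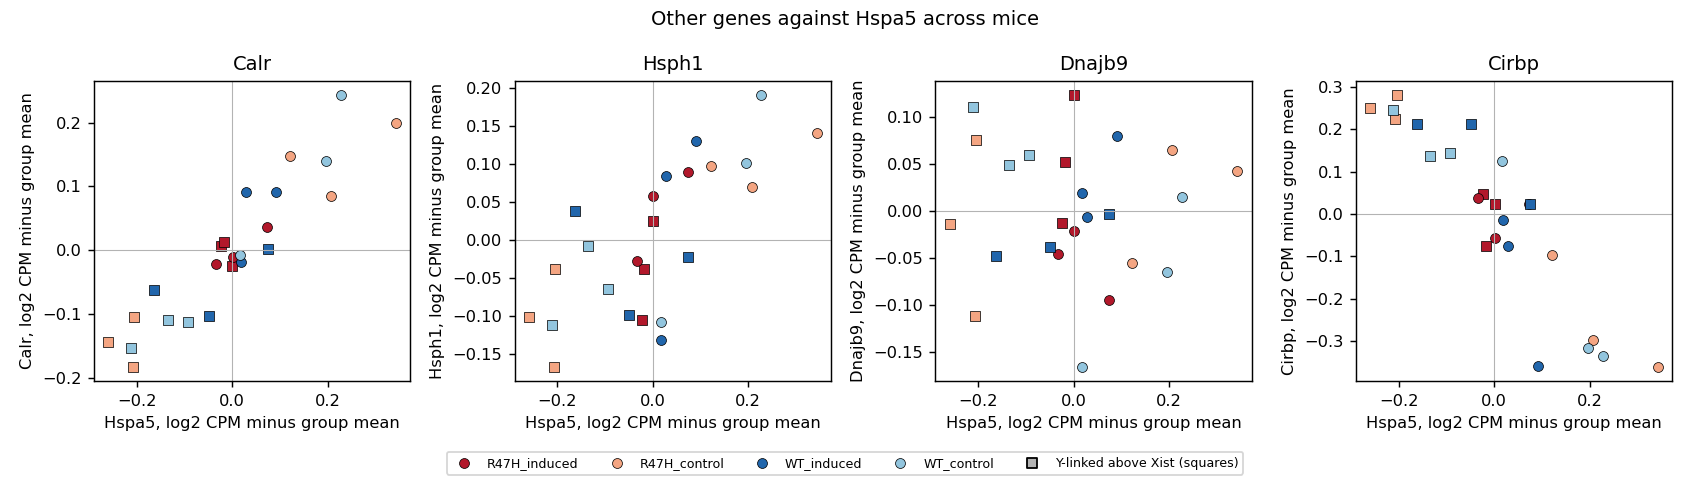
Log2 CPM minus the group mean of Calr, Hsph1, Dnajb9 and Cirbp (y axes) against that of Hspa5 (x axes); each point is 1 of 24 libraries, coloured by group, with squares for Y-linked counts above Xist and circles for the others. Calr and Hsph1 rise with Hspa5, Dnajb9 shows no slope, Cirbp falls, and squares lie mostly at low Hspa5.

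Part of this shared movement went with sex-linked expression. Sex is not given per sample, but in 3 libraries of each group the summed counts of Ddx3y, Eif2s3y, Kdm5d and Uty were above those of Xist, and in the other 3 they were below (here the Y-expressing libraries and the others), the proportions that the series text gives for males and females. These classes were read from the counts and are not labels of the study. A term for the class, averaged over groups in the edgeR fit, called 136 of 19678 genes (0.691%; 113 of them on chromosomes other than X and Y, 0.596% of those tested there). Of the 6 ER members 4 were among them, all lower in the Y-expressing libraries, and none of the 4 cytosolic members was. This term was read as a result after the data had been seen.

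Pdia4 was lowest in adjusted p. It had 24.9 to 32.3 CPM (median 27.3) in the 12 Y-expressing libraries, against 28.9 to 35.1 CPM (median 32.2) in the 12 others. Within R47H_induced, R47H_control and WT_control mice the classes did not overlap, and within WT_induced mice they did. The term was -0.22 on the log2 scale (SE 0.035, edgeR adjusted p = 0.000673). Hspa5 had 155 to 213 CPM (median 179) in the Y-expressing libraries and 184 to 236 CPM (median 205) in the others, which overlapped, and its term was -0.22 (SE 0.045, edgeR adjusted p = 0.0228). Its call was lost without WT_control replicate 2 (edgeR adjusted p = 0.053) or replicate 5 (0.0502), and with no filter on low counts (0.0529). For Manf the term was -0.18 (SE 0.034, edgeR adjusted p = 0.00873) and for Calr -0.16 (SE 0.032, edgeR adjusted p = 0.0094). With library totals in place of TMM, only Pdia4 kept its call, and the number called over all genes was 57.

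The remaining members did not pass this term. Hsp90b1 had -0.08 (edgeR adjusted p = 0.384), Dnajb9 0.04 (0.678), Hsph1 -0.12 (0.1001), Hspa8 -0.15 (0.537), Dnajb1 -0.07 (0.365) and Hsp90aa1 0.06 (0.491). Cirbp passed in the other direction (0.28, SE 0.063, edgeR adjusted p = 0.0388), and all 5 libraries of lowest Cirbp were in the class with Xist above. Among genes that work beside the members, Sdf2l1, a partner of Hspa5 (-0.38, edgeR adjusted p = 0.000445), the isomerase Pdia6 (-0.14, 0.0403), the J-domain gene Dnajb5 (-0.25, 0.00682) and the response factor Xbp1 (-0.18, 0.00623) were also lower in Y-expressing libraries. They come from lists of 19 other ER folding, 27 other cytosolic heat shock and 13 unfolded protein response genes. How many genes of each list this term called, in either direction, is not given here.

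The class difference in Hspa5 was called in control mice of both lines and in induced mice of neither. In R47H_induced mice the Y-expressing libraries had 185, 186 and 188 CPM and the others 184, 188 and 198 CPM, and these overlapped. In R47H_control mice the Y-expressing libraries had 155, 161 and 161 CPM and the others 202, 214 and 236 CPM, with a wide gap. The term was -0.03 in R47H_induced mice (edgeR adjusted p = 0.904), where it called none of the 10 members and 0.152% of genes. It was -0.45 in R47H_control mice (SE 0.058, edgeR adjusted p = 5.26e-05), where Pdia4, Calr and Manf were called lower as well and 0.554% of genes were called. With 1 library left out in turn, the R47H_control calls of Hspa5 and Calr held in 24 of 24 fits, that of Pdia4 in 19 (highest edgeR adjusted p 0.221) and that of Manf in 14 (0.194); every R47H_control library but replicate 4 was among those whose loss ended the Pdia4 and the Manf call. The difference between these terms was 0.42 (SE 0.082, edgeR adjusted p = 0.0267), where 0.254% of genes were called. Over the 24 fits that leave out 1 library it was 0.36 to 0.47, and the call was lost in 8 of them, without R47H_induced replicate 1, 2 or 6 or R47H_control replicate 1, 2, 3, 5 or 6 (highest edgeR adjusted p 0.0729). In WT_induced mice the term was -0.09 (edgeR adjusted p = 0.536), and in WT_control mice -0.30 (SE 0.058, edgeR adjusted p = 0.0082). No member was called in the first of these (0.96% of genes), and Calr and Manf were called beside Hspa5 in the second (1.74%). The WT_control call of Hspa5 was lost without WT_control replicate 1 or 5 (highest edgeR adjusted p 0.0748), that of Calr without replicate 5 (0.0548) and that of Manf without replicate 1, 2, 3, 4 or 5 (0.136). The difference in the WT line was 0.21 (SE 0.082) and did not pass (edgeR adjusted p = 0.213, where 1.67% of genes were called). It passed with library totals (0.33, edgeR adjusted p = 0.0291), a fit whose share of genes called is not given here.

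Put as an induction, Hspa5 in R47H mice was higher with tamoxifen in the Y-expressing class (0.23, SE 0.058) and lower in the other (-0.19, SE 0.058). In each class the 3 induced and the 3 control libraries did not overlap, but with 3 against 3 neither passed over all genes (edgeR adjusted p = 0.113, where 0.0762% of genes were called, and 0.456, where 0.0102% were). With library totals in place of TMM, the value in the Y-expressing class was 0.33 and passed (edgeR adjusted p = 0.00547). Calr gave 0.09 (SE 0.048) and -0.19 (SE 0.048) in the same comparisons, with an edgeR adjusted p of 0.439 and 0.394. With library totals the first became 0.20 and passed (edgeR adjusted p = 0.031). The shares of genes called above are of the fit with TMM, and those with library totals are not given here. Library totals also moved the members as a whole. In R47H_induced against R47H_control mice of both classes, the cytosolic median went from 0.02 to 0.07 and the ER median from -0.04 to 0.01. WT mice gave 0.19 (SE 0.058) and -0.01 (SE 0.058) for Hspa5, with an edgeR adjusted p of 0.920 where 0% of genes were called and 0.928 where 4.52% were. The order of dissection, cage and day of each mouse is not given, so these cannot be told apart from the class.

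With the class means removed as well, the block of ER genes was smaller in its correlations but stayed positive. The 10 pairs of the 5 genes had r between 0.41 and 0.82 (median 0.66), and 5 of the 10 passed. In the 12 Y-expressing libraries alone r ran from -0.17 to 0.81 (median 0.48), and in the 12 others from 0.61 to 0.96 (median 0.76). The negative values in the Y-expressing libraries were of Hsp90b1, with Pdia4 (-0.17) and Manf (-0.12). Hsph1 with these 5 genes had r between 0.37 and 0.87 (median 0.47) and passed with Hsp90b1 and Calr. In the Y-expressing libraries its r ran from -0.43 to 0.81 (median -0.04), and in the others from 0.71 to 0.92 (median 0.79). Over all members 11 of 45 pairs passed, 9 of them among the earlier 26. The other 2 were of Hsp90aa1, with Hsph1 (r = 0.78, where it had been 0.30) and with Hsp90b1 (r = 0.86, where it had been 0.46). Hsp90aa1 with Hspa5 had r = 0.20 in the Y-expressing libraries and 0.80 in the others, against 0.0044 over all 24. Dnajb9 with the other 5 ER members had r between 0.23 (Manf) and 0.67 (Hsp90b1) with class means removed, and none of these pairs passed. In the Y-expressing libraries its r with them ran from -0.32 (Pdia4) to 0.62 (Hsp90b1), and in the others from 0.53 (Calr) to 0.79 (Pdia4). Hspa5 with Cirbp gave r = -0.78 (rho = -0.75, permutation p = 0.00099), with -0.74 in the Y-expressing class and -0.83 in the other.

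Other genes of the folding machinery followed Hspa5 in part. Of 19 other ER folding genes, 8 (42.1%) had an r of at least 0.6 with it, led by Pdia6 (0.93), Sdf2l1 (0.88) and the kinase inhibitor Dnajc3 (0.87). So did 7 of 27 other cytosolic heat shock genes (25.9%), among them Chordc1 (0.85) and Dnajb5 (0.80), and 2 of 13 unfolded protein response sensors and factors, Xbp1 (0.91) and Atf6 (0.62). The shares were 1 of 14 for ER-associated degradation genes (Derl2), 0 of 8 for the chaperonin TRiC and 0 of 8 for mitochondrial chaperones, and 2.21% over all tested genes. The genes most like Hspa5 were P4ha1 (0.94), Calr, Pdia6, Tra2a, Ak4, Xbp1, Manf and Setd8 (0.89). Of 20 tested genes whose window held the full ER stress response element shown above, 5 (25.0%) reached 0.6: Calr, Pdia6, Dnajc3, Hsp90b1 and Creld2. The share over tested genes with any window was 2.43% (305 of 12539). All 5 that reached 0.6 are members or among the other ER folding genes already counted above. Of the genes with the element outside all lists none did, and the highest was Spats2l (0.42). Canx, Derl3 and Syvn1 are in the lists and hold the element, at 0.30, 0.28 and 0.20. These shares are descriptions of genes that share the same libraries.

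Between genotypes, several factors of the unfolded protein response were called. Averaged over treatments, R47H against WT mice had 4 of 13 unfolded protein response genes called lower and 1 higher, with a list median of -0.02, where 13.8% of all tested genes were called. Chac1, a glutathione-degrading target of ATF4, averaged 4.56 ± 0.50 CPM in R47H_induced and 6.94 ± 1.03 CPM in WT_induced mice, and 4.20 ± 0.37 CPM in R47H_control and 6.32 ± 0.44 CPM in WT_control mice (SD, n = 6), a log2 fold change of -0.60 (SE 0.063, edgeR adjusted p = 1.72e-07). Atf4 itself fell by 0.25 on the log2 scale (SE 0.036, edgeR adjusted p = 1.75e-05), Atf6 fell by 0.14 (0.00138), Trib3 fell by 0.50 (0.0122), and the sensor Ern1 rose by 0.14 (0.0054). Hspa5, Hsp90b1, Pdia4, Calr and Manf, which the response is known to raise, were not called in the same comparison.

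Of the other lists, ER folding genes had 2 of 19 lower, Hyou1 (-0.11, edgeR adjusted p = 0.0213) and Ppib (-0.09, 0.018), with a median of -0.01. Other cytosolic heat shock genes had 2 of 27 lower, the small heat shock protein Cryab (-0.55, edgeR adjusted p = 0.00128) and the HSP90 co-chaperone Fkbp5 (-0.14, 0.0437), with a median of -0.06. The mitochondrial protease Lonp1 was lower (-0.17, edgeR adjusted p = 7.16e-06), the TRiC subunit Cct5 higher (0.07, 0.0113), and 0 of 14 ER-associated degradation genes passed (4 at an unadjusted p below 0.05). In each of these 5 lists the share of genes called was below the 13.8% over all tested genes. Canx, the membrane partner of Calr, passed in R47H_control against WT_control mice alone among these comparisons (0.12, edgeR adjusted p = 0.0305). A list of 10 striatal neuron genes, a neighbouring region, was lower in R47H mice for 7, with summed levels of 1312 to 1499 CPM in R47H_induced against 1566 to 1699 CPM in WT_induced mice, and of 1315 to 1450 CPM in R47H_control against 1472 to 1695 CPM in WT_control mice. With that list as a covariate 322 genes were called in place of 2724, and its part in the values above was not tested.

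Libraries held between 27933505 and 56082520 counts. The 8 cortical excitatory neuron markers were detected in every library, with a summed level of 3383 to 4298 CPM. WT_induced replicate 6 stood apart in interferon and antigen presentation genes, with a summed level in its group from 116.8 to 1063 CPM, against 112.2 to 156.1 CPM over the other groups. Leaving it out called no member in any genotype or treatment comparison and left the 4 ER calls of the Y-linked class in place. Choroid plexus genes ran from 18.0 to 631.3 CPM and differed widely within every group, and no member was correlated with them by the permutation test.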

How the data were processed

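Bulk poly-A RNA of 24 mouse cortices (TruSeq v2, which does not mark strand) was analysed from the deposited table of raw gene counts. Per the submitters' processing notes the authors used STAR 2.5.2b, featureCounts 1.5.1 and mm10. Counting options and annotation release were not stated. The members and lists were chosen with earlier results of these data known.

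The counts were fitted in edgeR 4.0.16 (R 4.3.3): TMM scaling, the low-count filter filterByExpr, and a robust quasi-likelihood test on the 4 group means over all 24 libraries. P-values were adjusted by Benjamini-Hochberg over 19678 genes and called below 0.05. They measure the spread between mice. DESeq2 1.42.0 and limma-voom 3.58.1 were alternatives. Correlations used log2 CPM centred on group means, with 100000 two-sided permutations within groups. Copies were found with blastn 2.17.0 in the reference transcripts. The tests were checked on simulated data.

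All members are named. Of the chaperone and unfolded protein response lists, counts and called genes are given for R47H against WT averaged over treatments. The 8 genes most like Hspa8 and Hspa5 are named as well. The copies and the Y-linked class as a result were added after the data were seen.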

Additional observations from a re-analysis of the deposited data

Results flagged for a closer look

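Hspa5 in R47H_induced replicate 3 was 197.94 CPM, while the group's other 5 values lay at 183.8 to 188.2 CPM. The gap was 0.687 of the group's range, above Dixon's critical value of 0.625 for 6 samples. It was the 1 such group among 40 (10 members in 4 groups), where chance gives about 2.

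The difference in Hspa5 between Y-expressing and other libraries itself differed between treatments in the R47H line, by 0.423 on the log2 scale for R47H_induced minus R47H_control mice (SE 0.082, edgeR adjusted p = 0.0267). Cirbp differed in the opposite sense: it had 52.5 to 57.1 CPM in the Y-expressing and 53.2 to 56.8 CPM in the other libraries of R47H_induced mice, against 65.8 to 68.4 CPM and 43.8 to 52.6 CPM in R47H_control mice. Its part in the Hspa5 values was not tested.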

How the results depend on the processing

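Over 12 alternatives and 24 fits that each left out 1 library, 2447 of 2490 values of members moved by less than their SE and kept their side of the threshold, and 126 changed sign, 119 of these within 1 SE of 0. No member was called for R47H against WT averaged over treatments, where 13.8% of genes were. With the Y-linked class as a covariate 1 was (Hsph1, -0.10, edgeR adjusted p = 0.0449). With a library left out 0 to 1 were (Hspa8, -0.25, edgeR adjusted p = 0.0446 without R47H_control replicate 3). That library was the only R47H_control one in the lowest range of Hspa8 copies, with copies at 109 CPM and Hspa8 at 590 CPM. The part of the copies in that call was not tested. The shares of all genes called in these other fits are not given here. Directions turned for Hsp90aa1 in the difference of inductions (0.024 with library totals) and for Dnajb9 in R47H_control against WT_control mice (-0.015 with library totals, -0.0039 with the rRNA-like share and -0.023 with the striatal list as covariate). With its copies added Hspa8 turned to 0.024 in R47H_induced against WT_induced, 0.042 in R47H_control against WT_control and 0.033 averaged. The 26 passing pairs became 11 with class means removed. The class term called 4 members among 136 genes. It called 1 member among 57 genes with library totals and 5 among 299 genes with DESeq2. With a library left out it called 3 to 5 members and 75 to 193 genes. The causes were not tested.

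Over all genes, the striatal covariate left 171, 96 and 322 calls for R47H_induced against WT_induced, R47H_control against WT_control and their average, against 1142, 1129 and 2724. The rRNA-like covariate left 451 in R47H_control against WT_control. With library totals 63.8%, 14.3% and 37.8% of calls were higher in R47H, against 44.6%, 46.9% and 48.0%. No paired analysis was possible because the replicate numbers were given in accession order and pair no mice. Intervals of the inductions reached -0.19 to 0.19 for Hspa5 in the R47H line, so smaller changes could not be seen.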

Other observations

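Among the 12 libraries with Xist above the Y-linked counts, Cirbp had r = -0.93 with Hsp90aa1 and -0.87 with Dnajb9. Among the 12 Y-expressing libraries it had -0.03 with Hsp90aa1 and 0.08 with Dnajb9, and over all 24 it had -0.09 and -0.15. These are descriptions, with no test of the difference.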
